A study of Homo sapiens with 8 samples.

Results

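Interferon response and antigen processing genes were followed across mesenchymal and epithelial subpopulations of HMLE cells, a line of immortalised human mammary epithelial cells. The set held 34 genes, of 8937 genes with a name among the 54613 probe sets of the array. Members were found by the symbol, or an older symbol, that the authors' table gives a probe set, and where a gene had several named probe sets, the brightest by its 8-array mean was taken. All 34 genes were found, 23 through 1 probe set and 11 through several. The probe sets used for OAS1, HERC6 and IFI30 stood among the authors' calls in each of their 3 comparisons with CD24hi. The authors' table names further probe sets in array order, up to position 14644. Those of OAS1 and IFI30, at 12318 and 10871, lie within that stretch, and that of HERC6, at 28637, lies past it. The HERC6 probe set was therefore named only through those calls. Calls of HERC6 there are not independent of how it was found.

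Total RNA was hybridised to single-colour Affymetrix arrays, which give 1 linear signal (intensity) per probe set and array. The groups were MSP1, MSP2 and MSP3, which the labels call mesenchymal subpopulations of the line, and CD24hi, cells of the same line sorted positively for the surface protein CD24. Every group consisted of HMLE cells or derivatives grown in MEGM medium, and no interferon or other agent is named for any of them. How the MSP groups were derived, and whether each is 1 clone, is not given in the sources used here. Each group had 2 arrays, lettered a and b, and no label says what the letters stand for or that arrays came from separate cultures. The spread behind each p-value is therefore that of arrays, and it may hold technical variation alone. In such bulk samples, fewer cells of a type and less RNA per cell cannot be told apart.

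Interferons are secreted proteins that bind receptors on the cell surface and act through Janus kinases and STAT proteins. With IRF9, STAT proteins form a complex that enters the nucleus and binds interferon-stimulated response elements in promoters. The type II interferon also acts through gamma-activated sites. Their targets include proteins that block viral entry, sense or degrade viral RNA, and assemble the immunoproteasome, which cuts proteins into peptides for display on class I molecules. Epithelial and mesenchymal cells both carry the receptors and express many of these genes at a low level without any infection.

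All 8 arrays had a trimmed mean signal of 150.0, so levels are relative to each array's total, and 57.6% to 60.3% of probe sets lay under 32 signal units, taken here as dim. The labelled cell states were set against their markers. All 8 epithelial markers and 4 of the 6 mesenchymal ones stood among the authors' calls against CD24hi. Some of these had a name only through those calls, so for them the direction is no independent check. All 8 epithelial markers on the list, CDH1 and EPCAM among them, were lower in the MSP groups, with summed signals of 2490 to 5320 on MSP arrays against 34800 and 24000 on CD24hi arrays. All 6 mesenchymal markers were higher, with sums of 20800 to 30900 on MSP arrays against 375 and 247 on CD24hi arrays. The 4 leukocyte markers with a name summed to 17.8 to 56.9 on MSP arrays and to 79.4 and 52.3 on CD24hi arrays, and 2 of them were dim on all 8 arrays. The pair of CD24hi arrays stood apart from each other. Of 22220 probe sets with a mean signal of 32 or more, 26.2% differed over 2-fold between CD24hi arrays a and b, against 3.04% to 7.34% within the MSP groups. Signals of the spiked Bacillus transcripts were 800 and 77.4 on CD24hi arrays a and b, and between 204 and 321 on MSP arrays. The 3 comparisons of an MSP group with CD24hi share these 2 arrays.

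**Figure D1:**
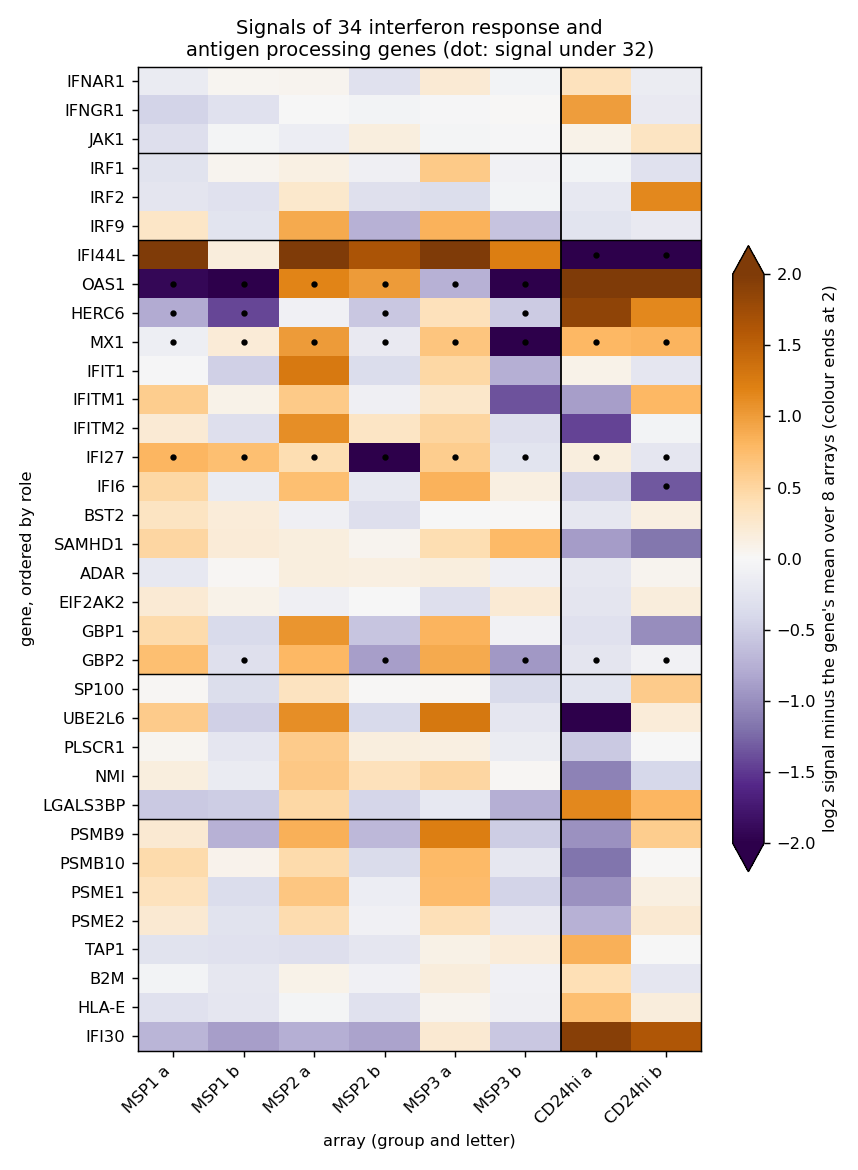
Colour shows the log2 signal of each gene on each array minus the gene's mean over the 8 arrays, with rows ordered by role and black dots on signals under 32. IFI44L is high on the 6 MSP arrays and low on both CD24hi arrays, and IFI30 and LGALS3BP run the other way. Many genes in the rows from IRF9 to PSME2 are higher on MSP arrays a than on MSP arrays b. Others in those rows, such as SAMHD1, ADAR and EIF2AK2, show no such rise.

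The first question was which of these genes differed between mesenchymal cells and CD24hi cells. IFI44L and SAMHD1 were higher in the MSP groups, and OAS1, HERC6, LGALS3BP and IFI30 were lower. The other 28 genes, among them the receptors, JAK1, the 3 transcription factors and the immunoproteasome genes, did not pass the test. Here "called" means an adjusted p under 0.05 in limma, with Benjamini-Hochberg adjustment over all 54613 probe sets. With the mean of the 3 MSP groups set against CD24hi, 6 of 34 genes (17.6%) were called, 2 higher and 4 lower, against 6.03% of all probe sets, of which 3.35% were higher and 2.68% lower. The probe set of HERC6, among these 6, was named through the authors' calls alone. The 34 genes were also chosen with earlier results of these data known. The shares therefore cannot be compared as they stand. Among probe sets with a mean signal of 32 or more, 10.4% were called, and 5 of the 30 members in that class. The median log2 change was 0.07 over the 34 genes and 0.02 over all probe sets. Against CD24hi, 6 genes were called in MSP1 (all probe sets 3.62%), 2 in MSP2 (3.28%) and 4 in MSP3 (3.66%). IFI44L and IFI30 were called in all 3. Without CD24hi array a, 4 genes were called against the mean of the MSP groups, and without CD24hi array b, 10. Without either MSP1 array, 2 were called in MSP1. Without MSP3 array a or b, 2 and 1 were called in MSP3, and without CD24hi array b, 6 in MSP2.

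**Figure D2:**
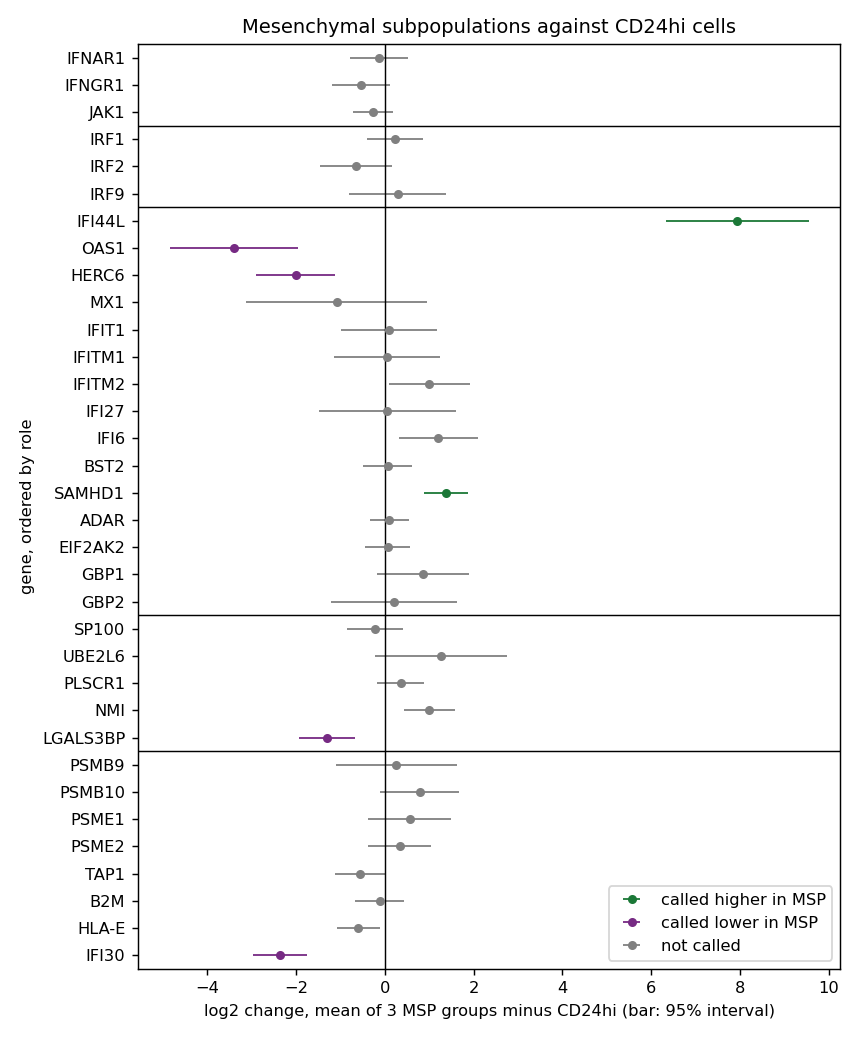
Points show each gene's log2 change, the mean of the 3 MSP groups minus CD24hi, and bars its 95% interval from the limma fit over 8 arrays. IFI44L lies far to the right at 7.94, while 28 of 34 genes are grey because their adjusted p did not pass 0.05.

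IFI44L, an interferon-induced protein with antiviral activity, had by far the widest change of the 34 genes. Its signals were 390 and 91.2 on the MSP1 arrays a and b, 820 and 254 in MSP2, and 774 and 189 in MSP3, against 0.98 and 1.74 in CD24hi. All 6 MSP arrays lay above both CD24hi arrays, and within each MSP group array a was the brighter. The mean log2 change was 7.94 ± 0.71 (SE), with an adjusted p of 0.000241. Since both CD24hi signals were dim, the difference is best given as at least 10-fold, from 320 in the MSP groups against the limit of 32. With every signal under 32 raised to 32, the change came to 3.32, still called, while the calls in the single groups were lost, with adjusted p of 0.219 for MSP1, 0.0802 for MSP2 and 0.0917 for MSP3. The authors' deposited table lists log2 changes of 4.38, 5.59 and 5.21 for this probe set in MSP1, MSP2 and MSP3.

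SAMHD1, a hydrolase that depletes deoxynucleotides and so restricts retroviruses, was the other gene that rose. Its signals were 289 and 236 in MSP1, 228 and 213 in MSP2, and 276 and 353 in MSP3, against 110 and 91.8 in CD24hi. The groups did not overlap, and arrays a and b had no common order. The log2 change was 1.38 ± 0.22 (SE), 2.61-fold, with an adjusted p of 0.00602. A further SAMHD1 probe set had 1.43 ± 0.25 (SE) with an adjusted p of 0.00966. It stood among the authors' calls, but its array position of 5043 lies within the stretch named in array order. The remaining one was dim in both. Averaging all 3 probe sets gave 0.72, not called, with an adjusted p of 0.364.

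IFI30, a lysosomal thiol reductase that opens disulfide bonds of antigens for class II presentation, fell in each MSP group. Its signals were 69.3 and 61.3 in MSP1, 67.0 and 62.7 in MSP2, and 132 and 76.8 in MSP3, against 431 and 346 in CD24hi. Every MSP array lay under both CD24hi arrays, by the least on MSP3 array a. The log2 change was -2.36 ± 0.27 (SE), which is 5.14-fold lower, with an adjusted p of 0.00105. Against the mean of the MSP groups the call held under all 17 alternative settings, while in MSP3 alone it was lost without MSP3 array b, with an adjusted p of 0.108.

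OAS1 makes oligoadenylates that switch on an RNA-degrading enzyme. It measured 1.61 and 0.998 in MSP1, 13.6 and 12.2 in MSP2, and 3.61 and 1.47 in MSP3, against 34.6 and 36.0 in CD24hi. All 6 MSP signals were dim and the CD24hi signals were just over the limit, so the fall is bounded only as at least 1.10-fold, although the fitted log2 change was -3.40 ± 0.64 (SE) with an adjusted p of 0.0141. Leaving out either CD24hi array ended the call, with adjusted p of 0.0619 without array a and 0.0704 without array b.

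HERC6, a ubiquitin ligase family member that in mouse attaches the ubiquitin-like protein ISG15, fell as well. Its signals were 23.7 and 15.3 in MSP1, 38.7 and 27.8 in MSP2, and 52.8 and 28.7 in MSP3, against 150 and 91.0 in CD24hi. The groups did not overlap, and 4 of the 6 MSP signals were dim. The log2 change was -2.01 ± 0.39 (SE), at least 3.65-fold lower, with an adjusted p of 0.017. Without CD24hi array a it was -1.65 and not called, with an adjusted p of 0.085. Averaging the HERC6 probe sets with a name gave -0.47, not called, with an adjusted p of 0.729. The further ones, named without the authors' calls, were dim in both and had log2 changes of 0.59 and 0.01.

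LGALS3BP is a secreted glycoprotein that binds galectin. Its signals were 391 and 401 in MSP1, 788 and 421 in MSP2, and 493 and 336 in MSP3, against 1260 and 991 in CD24hi. MSP2 array a came nearest to the CD24hi level. The log2 change was -1.30 ± 0.28 (SE), 2.47-fold lower, with an adjusted p of 0.0264. This call was lost when any of 4 arrays was left out, with an adjusted p of 0.0798 without MSP1 array a, 0.0748 without MSP1 array b, 0.0618 without MSP3 array b and 0.102 without CD24hi array a.

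**Figure D3:**
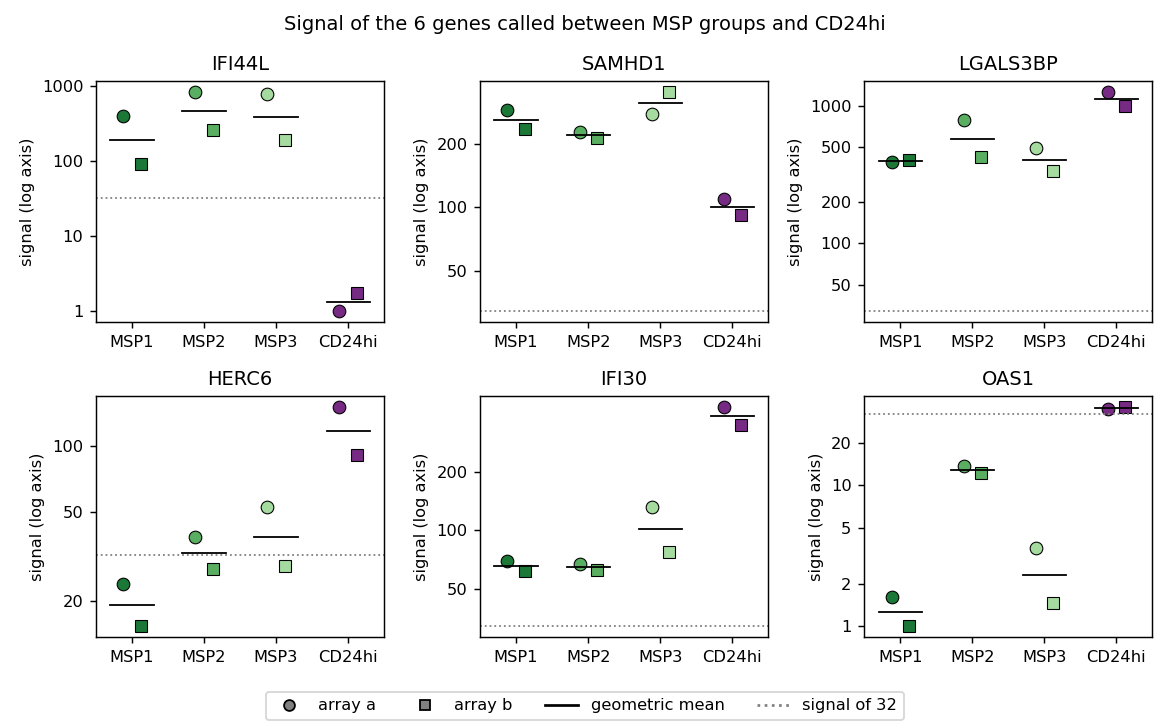
Circles are arrays a, squares arrays b, short lines the geometric mean of a group and the dotted line a signal of 32, on log axes of signal. IFI44L and SAMHD1 are higher in all 3 MSP groups, and LGALS3BP, HERC6, IFI30 and OAS1 are lower, with OAS1 dim on every MSP array.

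Promoter sequences are shown for the called genes that hold a known interferon element. They were searched in RefSeq promoters (build GRCh38.p14, 300 bases: 250 before the gene's start and 50 after) on both strands for the core of the interferon-stimulated response element, which is GAAA, any 2 bases and GAAA again, and for the gamma-activated site, TTCNNNGAA. The core was present in 996 of 27305 promoters in the table (3.65%) and in 17 of the 30 members matched by symbol (56.7%). The gamma-activated site was present in 7.88% of all promoters and in 8 of 30 members (26.7%). The 2 motifs overlap in none of the sequences printed here except that of IFITM1 below. Of the 6 called genes, 2 held the response element core (33.3%) and OAS1 held a gamma-activated site. HERC6, SAMHD1 and IFI30 held neither string in this window. The OAS1 sequence also holds GAAA, a single base and GAAA again, which the search with 2 bases between does not count. A promoter without the core string may therefore still hold a response element. Capitals mark the core in IFI44L (chr1:78620198-78620497, plus strand) and LGALS3BP (chr17:78979874-78980173, minus strand) and the gamma-activated site in OAS1 (chr12:112906712-112907011, plus strand), each written 5′ to 3′ along its gene.
IFI44L: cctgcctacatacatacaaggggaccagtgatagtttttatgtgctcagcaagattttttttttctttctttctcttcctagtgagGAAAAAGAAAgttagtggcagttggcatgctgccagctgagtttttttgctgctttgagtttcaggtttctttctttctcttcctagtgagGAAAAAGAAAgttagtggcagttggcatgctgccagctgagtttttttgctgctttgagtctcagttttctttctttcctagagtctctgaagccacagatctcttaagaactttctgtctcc
LGALS3BP: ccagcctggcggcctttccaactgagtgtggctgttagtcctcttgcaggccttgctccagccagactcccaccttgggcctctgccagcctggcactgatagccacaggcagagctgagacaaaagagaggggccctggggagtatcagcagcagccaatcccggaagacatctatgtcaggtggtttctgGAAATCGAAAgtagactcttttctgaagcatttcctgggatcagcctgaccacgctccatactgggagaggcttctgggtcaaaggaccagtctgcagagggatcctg
OAS1: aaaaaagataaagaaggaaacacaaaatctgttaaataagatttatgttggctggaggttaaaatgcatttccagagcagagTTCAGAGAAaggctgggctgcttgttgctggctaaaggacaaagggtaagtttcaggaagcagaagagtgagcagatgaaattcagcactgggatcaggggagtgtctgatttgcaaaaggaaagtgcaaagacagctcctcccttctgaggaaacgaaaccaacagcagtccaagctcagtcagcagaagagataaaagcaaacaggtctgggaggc
The IFI44L promoter holds the same core at 2 places, starting 164 and 73 bases before the gene's start. The core of LGALS3BP starts 58 bases before its gene's start. A match describes letters and is no measure of binding.

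Some genes that were not called had groups that did not overlap. NMI, which binds STAT proteins, had signals of 436 and 351 in MSP1, 613 and 507 in MSP2, and 557 and 401 in MSP3, against 186 and 295 in CD24hi. All MSP arrays lay above both CD24hi arrays, and the log2 change of 1.00 ± 0.25 (SE) had an adjusted p of 0.0534. IFI6, which protects cells against virus-induced death, also lay above on every MSP array, at 57.1 to 117 against 47.5 and 25.9 in CD24hi, with a change of 1.20 and an adjusted p of 0.129. HLA-E, a class I molecule that signals to natural killer cells, lay below on every MSP array by its brightest probe set. It had 961 to 1220 against 1950 and 1320 in CD24hi, with a change of -0.60 and an adjusted p of 0.171. The other HLA-E probe set did not run this way, at 420 in the MSP groups against 384 in CD24hi. Its change was 0.13, with an adjusted p of 0.851. In all, 4 of 34 genes had every MSP array above both CD24hi arrays, against 11.2% of all probe sets, and 5 of 34 had every MSP array below, against 9.92%.

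None of the 6 receptor, kinase and transcription factor genes among the 34 was called. The receptor chains IFNAR1 and IFNGR1 and the kinase JAK1 had log2 changes of -0.14, -0.54 and -0.27. IRF1, IRF2 and IRF9, factors that bind interferon-responsive promoters, had 0.23, -0.64 and 0.29. JAK1 was close to level on the arrays, at 690 to 952 in the MSP groups against 908 and 1070 in CD24hi. IRF2 was not, since CD24hi array b gave 253 and array a 99.9, with 90.1 to 136 on MSP arrays.

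The antiviral proteins that passed no test spread widely. MX1 and IFI27 were dim on all 8 arrays, so no difference could be measured. ADAR, which edits double-stranded RNA, had 1090 to 1390 on MSP arrays against 1080 and 1300 in CD24hi, and EIF2AK2, the kinase that halts translation on viral RNA, had 419 to 604 against 441 and 581. Their 95% intervals for the log2 change ran from -0.34 to 0.55 and from -0.44 to 0.56. IFITM2, a membrane protein that hinders viral entry, had 758 to 2030 on MSP arrays against 345 and 913 in CD24hi, with overlap and an adjusted p of 0.224. Probe set names mark IFITM1, IFITM2, BST2, EIF2AK2 and HLA-E as measured by probes that may also bind related transcripts, so each of these may read its relatives too.

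Of the antigen processing genes among the 34, those other than IFI30 were not called. TAP1, a chain of the peptide transporter of the endoplasmic reticulum, had 213 to 301 on MSP arrays against 479 and 263 in CD24hi. B2M, the light chain of class I molecules, had 6310 to 8180 against 9610 and 6250. The immunoproteasome subunits PSMB9 and PSMB10 and the proteasome activator subunits PSME1 and PSME2 had log2 changes of 0.26, 0.78, 0.56 and 0.34. For each of these 4, array a was above array b in the MSP groups and below it in CD24hi.

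The second question was whether the 3 mesenchymal subpopulations differed from one another. Without a term for the array letter, limma called 0 of 34 genes between any pair of MSP groups, against 0%, 0% and 0.00183% of all probe sets in MSP1 minus MSP2, MSP1 minus MSP3 and MSP2 minus MSP3. At an unadjusted p under 0.05 there were 1, 0 and 2 genes. In the paired fit, with the letter as a replicate block, IFI44L was lower in MSP1 than in either other group and IFITM2 was lower in MSP1 than in MSP2. IFI44L differed by -1.28 ± 0.14 (SE) on the log2 scale between MSP1 and MSP2, at 188 against 456, with an adjusted p of 0.00328. It differed by -1.02 ± 0.14 (SE) between MSP1 and MSP3, at 188 against 383, with an adjusted p of 0.0239. IFITM2 differed by -0.76 ± 0.12 (SE) between MSP1 and MSP2, at 910 against 1540, with an adjusted p of 0.0196. These are 2, 1 and 0 genes of 34 in the 3 pairs, against 0.866%, 0.236% and 0.405% of all probe sets. Between MSP2 and MSP3, IFITM2 was nearest to the threshold, at 1540 against 1010 with an adjusted p of 0.0811. OAS1 was dim in all 3 groups and gives no measured difference between them.

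The widest joint movement of these genes was between arrays a and b of the MSP groups, a comparison added after seeing the data. The 34 genes were also chosen with earlier results of these data known. Their share is therefore no independent measure of these pathways against all probe sets. In the wider list of 62 other pathway genes given below, 3 were called higher and 2 lower, with a median of 0.07. In a fit over the 6 MSP arrays with group and letter, 16 of 34 genes (47.1%) were called, all higher on arrays a and none lower, against 10.9% of all probe sets, of which 5.74% were higher and 5.15% lower. Among probe sets with a mean signal of 32 or more the share was 24.9%, and 15 of 30 members. The median log2 difference was 0.50 over the 34 genes and 0.00 over all probe sets. In 14 genes the 3 arrays a all lay above the 3 arrays b, against 12.7% of all probe sets, and in JAK1 alone they all lay below, against 12.8%. In 21 genes array a was above array b in all 3 groups, against 22% of all probe sets. The calls rest on limma's intensity trend: without it, 0 probe sets of any kind were called and the lowest adjusted p among the 34 genes was 0.319. Leaving out the MSP2 pair or the MSP3 pair gave 9 called genes each time. Leaving out the MSP1 pair gave 16, with SP100 lost and LGALS3BP added. Without the MSP2 pair the calls of IFIT1, IFI6, GBP2, SP100, PLSCR1, NMI and PSMB10 were lost, and without the MSP3 pair those of IFITM1, IFI6, GBP2, SP100, PLSCR1, NMI and PSMB10.

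Other measures moved with the letter. On MSP arrays a, the spiked Bacillus transcripts gave 285, 303 and 321, against 204, 213 and 224 on arrays b. The summed mesenchymal markers were 24700, 30500 and 30900 on arrays a and 21400, 22800 and 20800 on arrays b, with 3 of 6 called higher and 1 lower. The epithelial sums were 2630, 5020 and 5320 on arrays a and 2490, 3260 and 3270 on arrays b, with 2 of 8 called higher. The leukocyte sums were 17.8 to 39.4 on arrays a and 42.0 to 56.9 on arrays b. Their part in the differences of the interferon genes was not tested. The meaning of the letter is not given in the sources used here.

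By role, the difference was called in 1 of 3 transcription factors, 7 of 15 antiviral effectors, 4 of 5 other interferon-induced proteins and 4 of 8 antigen processing genes, and in none of the receptors and kinase. IRF9, the DNA-binding partner of the STAT proteins, had 135, 206 and 196 on arrays a of MSP1, MSP2 and MSP3, against 91.5, 65.7 and 73.1 on arrays b. All arrays a were above all arrays b, and the log2 difference was 1.21 ± 0.20 (SE), 2.31-fold, with an adjusted p of 0.00566. On CD24hi the pair was level, at 91.5 on array a and 97.6 on array b. IRF1 and IRF2 were not called, at 0.20 and 0.11.

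**Figure D4:**
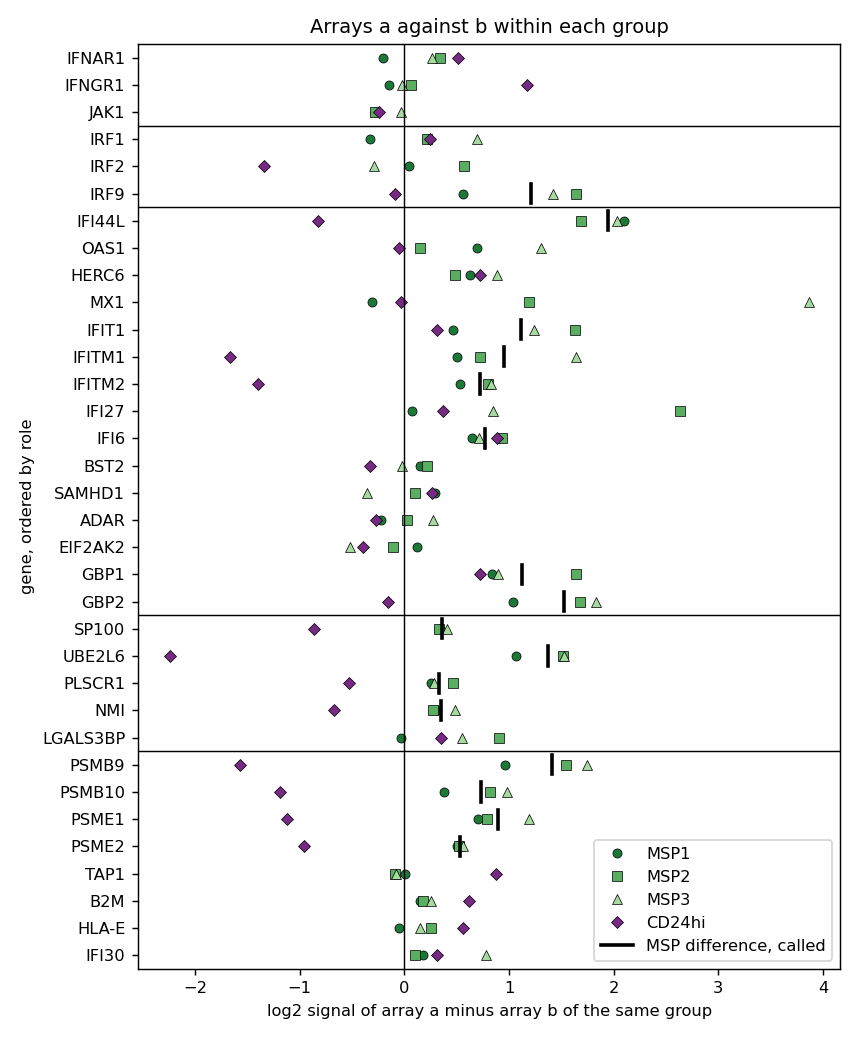
Markers show log2 signal of array a minus array b within MSP1, MSP2, MSP3 and CD24hi, and black bars the mean MSP difference of the 16 called genes. For these 16 genes all MSP markers lie right of 0, while the CD24hi marker lies left of 0 for 13 of them, down to -2.24 for UBE2L6.

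Among the antiviral effectors, IFI44L had the lowest adjusted p of the set in this comparison, 0.00018, with a log2 difference of 1.94 ± 0.11 (SE). Its signals on arrays a were 2.10, 1.69 and 2.03 log2 units above those on arrays b in the 3 groups, so the letter moved it alike in each. IFIT1, which binds foreign RNA ends, had 63.1, 155 and 88.8 on arrays a against 45.8, 50 and 37.6 on arrays b. The groups did not overlap and the difference was 1.11 ± 0.23 (SE), 2.16-fold, with an adjusted p of 0.0151. GBP1, an interferon-induced GTPase that attacks vacuoles of intracellular microbes, had 291, 444 and 376 on arrays a against 163, 143 and 203 on arrays b. The difference was 1.12 ± 0.16 (SE), 2.18-fold, with an adjusted p of 0.00281. A second GBP1 probe set was called as well, at 0.85 ± 0.11 (SE) with an adjusted p of 0.00244. By its name, that second set may also bind transcripts related to GBP1.

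Its neighbour on the chromosome, GBP2, was dim on 3 MSP arrays. It had 38.0, 39.6 and 42.7 on arrays a against 18.5, 12.4 and 12.0 on arrays b, which is at least 1.25-fold, with an adjusted p of 0.0176, or of 0.0504 with low signals raised to 32. IFITM1, IFITM2 and IFI6 were called at 0.95, 0.72 and 0.77. IFITM1 and IFITM2 are also chromosomal neighbours with no coding gene between them, and their probes may read each other's transcripts. Of the 8 effectors not called, OAS1, MX1 and IFI27 were dim on both letters. SAMHD1, ADAR and EIF2AK2 were at 0.01, 0.02 and -0.17. BST2 was at 0.12 by its brightest probe set, while a second probe set, dim on both letters, was called at 2.92 with an adjusted p of 0.0367.

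UBE2L6, the enzyme that conjugates ISG15 to proteins, had the lowest adjusted p of the other induced genes. It had 557, 787 and 897 on arrays a of MSP1, MSP2 and MSP3, against 265, 277 and 313 on arrays b. The difference was 1.37 ± 0.11 (SE), 2.58-fold, with an adjusted p of 0.000602. CD24hi ran the other way, with 87.7 on array a and 414 on array b. SP100, a protein of nuclear bodies, PLSCR1, a membrane protein with antiviral activity, and NMI were called at 0.36, 0.33 and 0.35, with adjusted p of 0.0417, 0.0456 and 0.043. These 3 calls sit near the threshold. A further SP100 probe set that was not dim had 0.27 and was not called, with an adjusted p of 0.154. The further PLSCR1 probe set had 0.20 and was not called, with an adjusted p of 0.449. LGALS3BP was not called, at 0.47 with an adjusted p of 0.0916.

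Of the antigen processing genes among the 34, the inducible proteasome parts differed between the letters and the other 4 did not pass the test. PSMB9, a catalytic subunit of the immunoproteasome, had 256, 396 and 512 on arrays a against 131, 136 and 154 on arrays b. All arrays a were above all arrays b, by 1.41 ± 0.15 (SE) on the log2 scale, 2.66-fold, with an adjusted p of 0.00106. Its further probe sets were dim, and averaging all of them gave 0.49, not called, with an adjusted p of 0.212. PSMB10, another of the catalytic subunits, had 229, 229 and 289 on arrays a against 177, 130 and 146 on arrays b, a difference of 0.73 ± 0.14 (SE) with an adjusted p of 0.00985. PSME1 and PSME2 form the activator that opens the proteasome, and they had differences of 0.89 ± 0.11 (SE) and 0.53 ± 0.08 (SE), with adjusted p of 0.00177 and 0.00466. PSME1 had 1030, 1270 and 1360 on arrays a against 634, 738 and 592 on arrays b. TAP1, B2M, HLA-E and IFI30 were not called, at -0.05, 0.19, 0.11 and 0.35. TAP1 lies next to PSMB9 on chromosome 6 with no coding gene between them, and it had 220, 213 and 285 on arrays a against 218, 226 and 301 on arrays b. PSME1, PSME2 and IRF9 lie close together on chromosome 14, with 1 coding gene between PSME1 and PSME2 and 1 between PSME2 and IRF9, and all 3 were called.

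**Figure D5:**
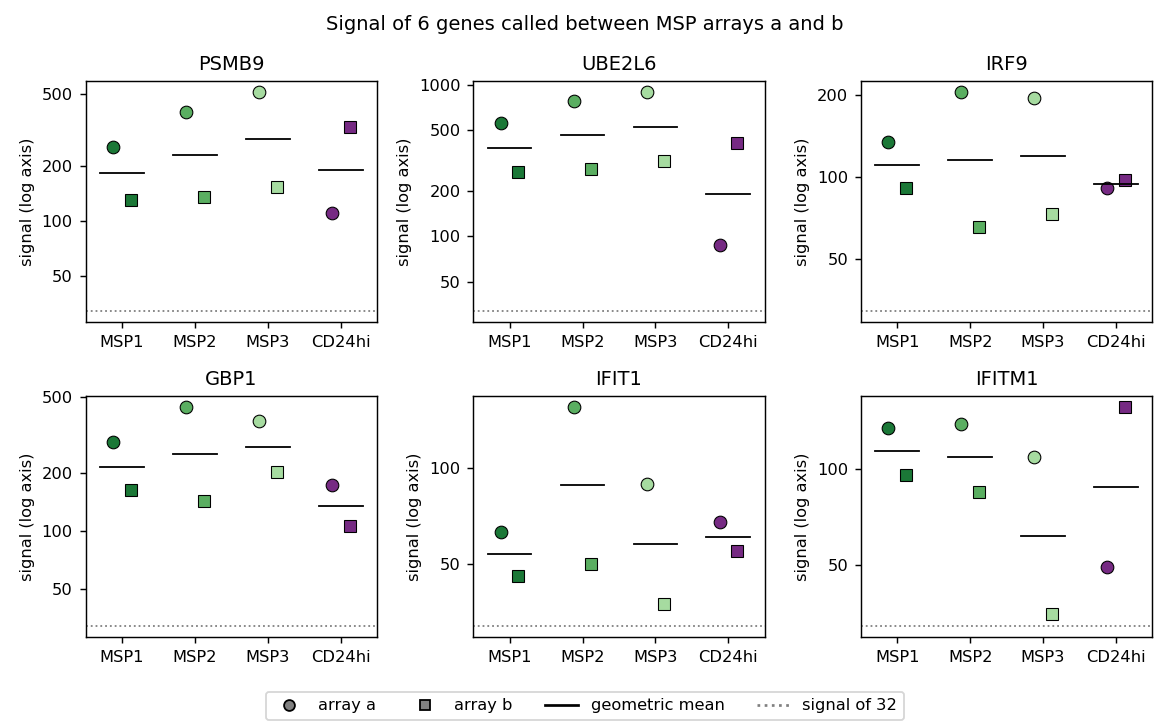
Circles are arrays a, squares arrays b, short lines group geometric means and the dotted line a signal of 32, on log axes of signal; the genes are those with the widest called difference and no dim array. In PSMB9, UBE2L6, IRF9 and IFITM1 the circle lies above the square in each MSP group and below it in CD24hi, whereas in GBP1 and IFIT1 it lies above in all 4 groups.

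The response element core was present in 10 of the 14 promoters found for genes called between the letters (71.4%) and in 7 of the 16 found for genes not called (43.8%). The gamma-activated site was present in 4 of 14 (28.6%) and in 4 of 16 (25.0%). Windows of 60 bases show where the core lies in 9 of these genes, IFI44L having been printed above, since its place differs between genes that were called together. Capitals mark every copy of the core inside the window, on either strand, and each line runs 5′ to 3′ along its gene. The windows lie at chr10:89392495-89392554 (IFIT1, plus strand), chr11:314000-314059 (IFITM1, plus strand), chr1:27672251-27672310 (IFI6, minus strand), chr1:89065301-89065360 (GBP1, minus strand), chr3:146544652-146544711 (PLSCR1, minus strand), chr2:151289797-151289856 (NMI, minus strand), chr16:67936837-67936896 (PSMB10, minus strand), chr14:24136174-24136233 (PSME1, plus strand) and chr14:24146604-24146663 (PSME2, minus strand).
IFIT1: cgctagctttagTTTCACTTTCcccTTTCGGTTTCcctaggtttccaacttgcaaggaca
IFITM1: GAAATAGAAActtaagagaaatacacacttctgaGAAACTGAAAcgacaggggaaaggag
IFI6: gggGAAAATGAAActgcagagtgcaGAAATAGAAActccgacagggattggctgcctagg
GBP1: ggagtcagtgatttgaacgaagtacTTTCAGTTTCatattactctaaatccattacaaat
PLSCR1: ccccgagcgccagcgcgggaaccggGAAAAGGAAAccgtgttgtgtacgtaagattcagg
NMI: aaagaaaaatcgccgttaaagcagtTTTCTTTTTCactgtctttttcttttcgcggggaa
PSMB10: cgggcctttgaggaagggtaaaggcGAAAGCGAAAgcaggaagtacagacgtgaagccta
PSME1: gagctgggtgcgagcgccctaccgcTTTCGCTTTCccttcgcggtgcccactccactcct
PSME2: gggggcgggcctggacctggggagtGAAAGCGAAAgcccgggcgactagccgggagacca
The last core of the window starts 103 bases before the gene's start in IFIT1, 6 before in IFITM1, 93 before in IFI6, 127 before in GBP1, 79 before in PLSCR1, 163 before in NMI, 21 before in PSMB10 and 28 before in PSME2, and in PSME1 at base 6, counting the start as 1. IFIT1, IFITM1 and IFI6 carry 2 cores within 60 bases. IRF9, SP100, UBE2L6 and PSMB9 were called and had no core of these letters in the 300 bases. IRF9 held a gamma-activated site (capitals) 63 bases before its start, in the window chr14:24161176-24161235 on the plus strand.
IRF9: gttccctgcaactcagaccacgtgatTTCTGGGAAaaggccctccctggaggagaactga
IFITM2, GBP2, IRF2 and HLA-E had no entry in the promoter table.

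Around these 34 genes, a wider list of 127 genes of the same pathways was read, of which 62 had a name. Of those, 11 stood among the authors' calls. Against CD24hi, 4 of the 62 were called higher and 8 lower in the mean of the MSP groups, and their median log2 change was -0.25. Because some of these 11 owe their name to the authors' calls in these comparisons, that count is not independent and is not read against all probe sets. Of the called genes named here, ISG20, HLA-F and TAP2 had a name without such a call. JAK2, the kinase of the type II receptor, averaged 144 in the MSP groups against 45.7 in CD24hi, a log2 change of 1.66 ± 0.24 (SE) with an adjusted p of 0.00384. Its feedback inhibitor SOCS3 was at least 2-fold higher, with an adjusted p of 0.0263. IFNLR1, the receptor chain for lambda interferons that is typical of epithelia, gave 1.60 to 22.6 on MSP arrays against 158 and 155 in CD24hi, at least 4.88-fold lower with an adjusted p of 0.0177.

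STAT2, which binds IRF9, averaged 37.4 in the MSP groups against 25.9 in CD24hi and was not called, with an adjusted p of 0.629. Of 12 type I interferon-stimulated genes, 2 were called higher and 3 lower. However, 5 of the 12 stood among the authors' calls, and some of these have a name only through them. EPSTI1 had 101 to 252 on MSP arrays against 20.9 and 26.0 in CD24hi, and IFIT5 averaged 300 against 158. ISG20, a nuclease, was at least 2.34-fold lower, and LAMP3, a lysosomal membrane protein, at least 1.28-fold. The other one was OAS3, a relative of OAS1 that is named after its values were seen, with 116 against 394 and an adjusted p of 0.00235. Of 7 type II targets, ICAM1, an adhesion molecule, was lower and none was higher. In class I presentation, HLA-F and TAP2, the partner of TAP1, were lower, at 391 against 941 and 97.9 against 248, and 0 of 9 were higher. By its name, the HLA-F probe set may also bind related transcripts. None of the 2 interferon ligands, 2 nucleic acid sensors or 11 constitutive proteasome core subunits with a name was called. The 6 class II genes with a name were not called in the mean of the MSP groups, but 1 was called lower in MSP1. The brightest members were IFNE at 33.4 in the MSP groups against 18.2 in CD24hi, and CGAS at 16.8 against 32.2, among ligands and sensors. Among core subunits and class II genes they were PSMB1 at 4110 against 4050 and CTSL at 842 against 1320. ISG15 had no name among the probe sets used and was not analysed here.

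Between MSP arrays a and b, 3 of the 62 were higher (IFNGR2, EPSTI1 and ERAP2) and 2 lower (CANX and CTSL), against 10.9% of all probe sets, with a median log2 difference of 0.07. These 5 are named after their values were seen. Of the 11 constitutive proteasome core subunits, 0 were called, with a median of 0.05. The inducible subunits PSMB9 and PSMB10 stood at 1.41 and 0.73 in the same comparison. EPSTI1 had 137, 252 and 177 on arrays a against 101, 117 and 102 on arrays b, a difference of 0.77 ± 0.15 (SE) with an adjusted p of 0.011. CTSL, a lysosomal protease, averaged 592 on arrays a against 1200 on arrays b, with an adjusted p of 0.000692.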

How the data were processed

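Biotin-labelled RNA of 4 groups of HMLE cells, with 2 single-colour Affymetrix arrays each, was measured, per the labels. The authors deposited a linear intensity (signal) for every probe set, used here as given. All 8 columns have the same trimmed mean, and no source used here gives the algorithm. The submitters' processing notes name Affymetrix Expression Console as well as limma, with no versions. The authors' deposited table adds log2 changes and p-values for each MSP group against CD24hi, and gene symbols for 14051 probe sets. It lists the 2256 probe sets with an authors' p up to 0.05 in all 3 comparisons and then array order, up to position 14644. The probe sets used for 3 members stand in the first part, and only that of HERC6, at 28637, lies past that position. It therefore has a name through those calls alone.

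Signals were taken to log2 with no offset, and 54613 probe sets, without 62 controls, were fitted in limma 3.58.1 (R 4.3.3) with group means and eBayes with an intensity trend, two-sided, with Benjamini-Hochberg adjustment over all probe sets. CD24hi comparisons used all 8 arrays. Comparisons among MSP groups and of letters used the 6 MSP arrays. Levels are geometric means. A fold against a level under 32 is given as a bound at 32. The fit was tested on simulated data. Same-lettered MSP arrays deviated together (correlations of a minus b of 0.60, 0.64 and 0.75 over 22220 probe sets), those of CD24hi the opposite way (-0.29 to -0.40), so blocked values are given beside comparisons among MSP groups.

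Members and lists were chosen with earlier results of these data known. Values on every array are given for members called in a planned comparison. The letter comparison, its named genes and the limit of 32 came after values were seen. Other pathway genes are named for at most the 2 widest called rises and 2 widest called falls in a list, or its brightest gene where none was called, plus STAT2; some genes that this rule names are not reported here. Alternatives covered normalization, low signals, the trend, probe set choice, array weights, the block, the arrays fitted and leaving out each array.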

Additional observations from a re-analysis of the deposited data

Results flagged for a closer look

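In 13 of the 16 genes called higher on MSP arrays a than on MSP arrays b, array a lay above array b in all 3 MSP groups and below it in CD24hi. The log2 difference of array a minus array b in CD24hi was -0.09 for IRF9, -0.83 for IFI44L, -1.67 for IFITM1, -1.40 for IFITM2, -0.16 for GBP2, -0.86 for SP100, -2.24 for UBE2L6, -0.53 for PLSCR1, -0.67 for NMI, -1.57 for PSMB9, -1.19 for PSMB10, -1.12 for PSME1 and -0.96 for PSME2. IFI44L and GBP2 were dim on both CD24hi arrays, so their CD24hi differences are not measured ones. The difference between the MSP groups and CD24hi was not tested, since CD24hi has 1 pair of arrays. Of all 34 genes, 20 were lower on CD24hi array a than on array b. The spiked Bacillus transcripts were brighter on array a in all 4 groups, at 285, 303, 321 and 800 in MSP1, MSP2, MSP3 and CD24hi, against 204, 213, 224 and 77.4 on arrays b.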

How the results depend on the processing

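No called gene changed direction under any alternative. IFI44L and IFI30 stayed called against CD24hi, over the mean of the MSP groups, under all 17 alternatives. In place of the 6 genes called there, 3 were called without the intensity trend and 3 with array weights, and 4 to 10 as each array was left out. In MSP1 against CD24hi, 3 instead of 6 were called with low signals raised to 32, 3 without the trend and 3 with only the arrays compared, and 2 to 7 as arrays were left out. In MSP2 against CD24hi, 5 instead of 2 were called when 1 probe set per named gene was tested, and 2 to 6 as arrays were left out. In MSP3 against CD24hi, 2 instead of 4 were called without the trend, 2 with a gene's probe sets averaged and 1 with only the arrays compared, and 1 to 5 as arrays were left out. With the letter as a replicate block, 2 genes instead of 0 were called between MSP1 and MSP2, and 1 instead of 0 between MSP1 and MSP3. Against CD24hi the block gave 7, 6, 3 and 5 genes for the mean, MSP1, MSP2 and MSP3, and with the CD24hi letters crossed, an alternative chosen after seeing the data, 10, 6, 7 and 7. Between MSP arrays a and b, 0 instead of 16 were called without the trend, and 9 to 16 as each pair was left out, the 16 without MSP1 lacking SP100 and including LGALS3BP. The share of all probe sets called shifted as well. Against CD24hi over the mean of the MSP groups it was 6.03% in the main fit and 3.17% without the trend. It was 3.28% with array weights, 5.87% with the block and 10.8% with the CD24hi letters crossed. With 1 probe set per named gene, 18.4% of the genes tested were called over the mean. In MSP1 that share was 14.9%, against 3.62% of all probe sets in the main fit. The causes of these shifts were not tested. With 2 arrays a group, and IFI44L, OAS1 and HERC6 dim in at least 1 group, sizes for these 3 genes are only bounds.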
